A study of Arabidopsis thaliana with 72 samples.

Results

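Transporter genes of the UMAMIT family, 6 in number, were followed through the roots of Arabidopsis thaliana grown with and without phosphate: UMAMIT11 (AT2G40900), UMAMIT14 (AT2G39510), UMAMIT17 (AT4G08300), UMAMIT18 (AT1G44800, also SIAR1), UMAMIT28 (AT1G01070) and UMAMIT29 (AT4G01430). They are 6 of the 47 UMAMIT genes that the reference annotation names, and 6 of 33602 genes in the deposited table. The genes were chosen by RPKM values of these same libraries, since earlier results had named UMAMIT17 for its change in wild type and UMAMIT14 for its level in phr1phl1 without phosphate. Those 2 kinds of contrast, -Pi against +Pi in Col and mutant against Col on -Pi, are therefore given for the 6 genes as values with their errors and no test. The same holds for every contrast of UMAMIT14 that uses the phr1phl1 libraries on -Pi, and of UMAMIT17 that uses the Col libraries on +Pi. All 6 genes passed the filter on low values, of at least 1 RPKM (reads scaled by gene length and library size) in at least 3 libraries.

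The study asked what PHR1 and the related genes PHL1 to PHL4 do in roots starved of phosphate. Seedlings were grown for 8 days on +Pi or -Pi medium, both with sucrose, and RNA of whole roots was sequenced. The 12 genotypes were Col-0 (Col), the mutants phr1, phl1, phl2, phl3 and phl4, the crosses phr1phl1, phr1phl2, phr1phl3 and phr1phl4, and the higher-order mutants phr1phl1phl2 and phr1phl1phl2phl3. Each genotype and medium was represented by 3 libraries, called biological replicates by the submitters, so 24 groups make up 72 libraries. Plates were set with agar or with agarose, and the labels do not say which library came from which, nor which alleles the mutants carry.

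UMAMIT proteins are integral membrane carriers of the plant drug and metabolite transporter superfamily, and several move amino acids out of cells along their gradient. UMAMIT14 and UMAMIT18 act in the root vasculature, where they release amino acids unloaded from the phloem. UMAMIT11, UMAMIT14, UMAMIT28 and UMAMIT29 also supply amino acids to the developing seed, and UMAMIT29 has been described as an exporter of glucosinolates, the defence compounds of the cabbage family. PHR1 and its relatives are MYB transcription factors that bind a short palindrome named P1BS in promoters of genes induced by phosphate starvation.

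The DNA just upstream of 4 of the genes is shown. UMAMIT14 and UMAMIT28 each hold 1 copy of P1BS, GNATATNC on either strand, in the 250 bases before the annotated gene start. Of the genes followed here, these 2 also had the lowest levels in phr1phl1 on -Pi relative to Col. That contrast has no test and UMAMIT14 was chosen by it, so this grouping is not independent of expression. Whether PHR1 acts at these sites was not tested. UMAMIT17 and UMAMIT18 hold none, but share a run of 24 bases. UMAMIT11 and UMAMIT29 hold none either, and their windows are not shown. Coordinates and bases are from RefSeq's TAIR10.1 assembly, whereas the submitters name TAIR10 for their own mapping. The windows lie between genes, at chr2:16493344-16493593 on the minus strand (UMAMIT14), chr1:41018-41267 on the minus strand (UMAMIT28), chr4:5244615-5244864 on the plus strand (UMAMIT17) and chr1:16917054-16917303 on the minus strand (UMAMIT18). Each is written 5′ to 3′ along its gene, ending at the base before the gene start, with P1BS in capitals in the first pair and the shared run in capitals in the other.
UMAMIT14: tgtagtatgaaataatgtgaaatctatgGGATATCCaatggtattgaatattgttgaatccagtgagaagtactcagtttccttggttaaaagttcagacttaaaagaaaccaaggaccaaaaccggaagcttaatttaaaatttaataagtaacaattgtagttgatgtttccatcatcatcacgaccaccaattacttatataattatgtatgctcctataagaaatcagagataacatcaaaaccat
UMAMIT28: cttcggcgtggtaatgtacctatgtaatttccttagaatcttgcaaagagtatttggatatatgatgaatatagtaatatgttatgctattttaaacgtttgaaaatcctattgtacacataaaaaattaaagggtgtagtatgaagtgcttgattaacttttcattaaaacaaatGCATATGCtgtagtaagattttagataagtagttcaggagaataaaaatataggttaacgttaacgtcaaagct
UMAMIT17: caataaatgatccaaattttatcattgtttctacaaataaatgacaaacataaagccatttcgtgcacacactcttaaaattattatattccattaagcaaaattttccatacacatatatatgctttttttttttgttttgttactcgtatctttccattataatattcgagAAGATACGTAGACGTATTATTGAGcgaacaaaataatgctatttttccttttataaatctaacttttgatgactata
UMAMIT18: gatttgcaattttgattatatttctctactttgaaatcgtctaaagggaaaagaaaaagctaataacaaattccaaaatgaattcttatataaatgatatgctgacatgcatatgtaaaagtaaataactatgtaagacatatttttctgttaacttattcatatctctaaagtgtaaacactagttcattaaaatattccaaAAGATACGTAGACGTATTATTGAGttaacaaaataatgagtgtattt

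P1BS started 222 bases before UMAMIT14 and 74 bases before UMAMIT28. It was in 2 of the 6 windows, and in 1 of the 41 windows of the other UMAMIT genes, that of UMAMIT30. UMAMIT30 held 2 copies and averaged 119 RPKM in Col and 66.0 RPKM in phr1phl1 on -Pi. Among 27443 protein-coding genes, 5.46% held it in a window of that length. In windows of 1000 bases P1BS was still in 2 of the 6 genes, in 9 of the 41 others and in 20.3% of all genes. UMAMIT27 held none there, and averaged 35.6 RPKM in Col and 5.84 RPKM in phr1phl1 on -Pi. The run shared by UMAMIT17 and UMAMIT18 was in 2 of the 27443 windows on either strand, which are those of these genes. It began 77 bases before UMAMIT17 and 47 bases before UMAMIT18, and the next longest run shared by any pair of the 6 windows had 11 bases. These matches describe the letters in the windows and say nothing of what binds there.

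UMAMIT17 and UMAMIT18 are also the most alike of the 6 in their exons, with 78.4% identity over 1022 aligned bases. UMAMIT28 is most like UMAMIT26, at 85.4% identity over 859 of its 1831 exon bases, so a part of the reads of this pair could have been counted at the wrong gene. None of the 6 genes overlaps another annotated gene. UMAMIT17 has UMAMIT20 as its neighbour, 3752 bases away on chromosome 4.

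Library depth, estimated from the spacing of low values in genes of 1 exon, was 14.6 to 40.4 M reads (median 22.9 M), at which 1 RPKM of these genes stands for about 22.1 to 74.0 reads. PHR1 (AT4G28610) was at 1.62 to 5.86 RPKM in the 42 libraries that carry phr1 and at 15.8 to 27.7 RPKM in the other 30. PHL1 (AT5G29000) was likewise lower in its mutants, at 1.60 to 4.66 against 5.70 to 10.4 RPKM. The gene taken as PHL2 (AT3G24120) was at 0.675 to 4.38 RPKM with phl2 and 12.2 to 37.2 RPKM without it, and the gene taken as PHL4 (AT2G20400) at 2.73 to 5.02 RPKM with phl4 and 3.21 to 18.7 RPKM without it, which overlap. The gene taken as PHL3 (AT4G13640) was at 1.93 to 3.87 RPKM in phr1phl3, but at 6.31 to 16.3 RPKM in the libraries labelled phl3 and 5.45 to 16.4 RPKM in those labelled phr1phl1phl2phl3, against 3.99 to 15.6 RPKM in libraries without that mutation. These 2 genotypes are named below as labelled. Of the 7 phloem markers, 6 were at 1 RPKM or more in all 72 libraries, and the other, NAC086, in 33 of the 36 on +Pi and 36 of 36 on -Pi. Of the 6 root markers, 5 were at that level in all 72. The other root marker, SKOR, a potassium channel of the root stele, was at a median of 16.6 RPKM on +Pi and 0.541 RPKM on -Pi. The summed seed markers were at most 1.02 RPKM on +Pi and 11.6 RPKM on -Pi. The summed green tissue markers varied most, from 57.1 to 533 RPKM on +Pi and from 3.96 to 1261 RPKM on -Pi. In whole roots, fewer cells of a type and less RNA per cell cannot be told apart. The libraries also fall into 3 classes (35, 20 and 17 libraries) by how values lean on GC content, length and adenine content of genes, and all 17 libraries of the smallest class are +Pi libraries.

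**Figure D1:**
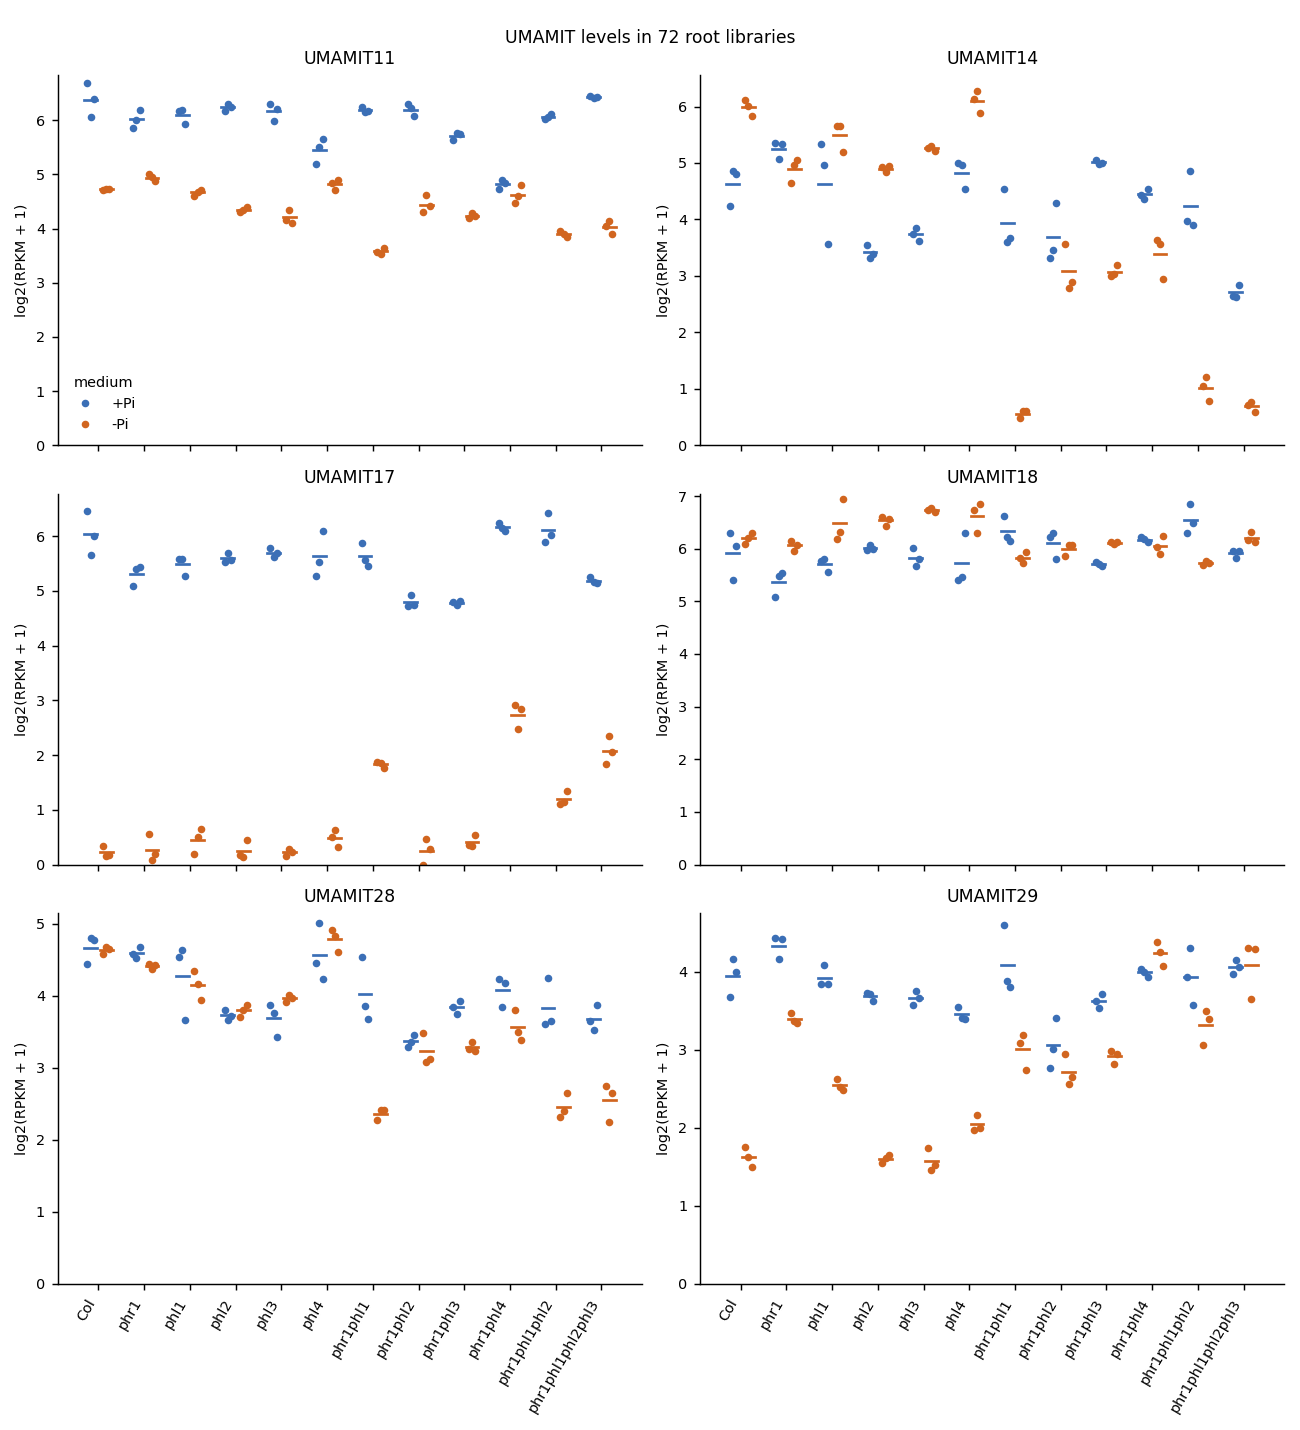
Level of the 6 UMAMIT genes in each of 72 root libraries as log2(RPKM + 1), with the genotypes along the horizontal axis, +Pi libraries in blue and -Pi libraries in orange. Points are libraries and short lines are means of 3. UMAMIT17 drops to near 0 on -Pi in 8 genotypes and less far in phr1phl1, phr1phl4, phr1phl1phl2 and phr1phl1phl2phl3, and UMAMIT14 is near 0 on -Pi in phr1phl1, phr1phl1phl2 and phr1phl1phl2phl3.

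UMAMIT14, the root vascular exporter, was high in starved wild type roots and under 1 RPKM in starved phr1phl1 roots. In Col it was at 17.8, 28.0 and 27.1 RPKM on +Pi and at 68.0, 63.8 and 55.6 RPKM on -Pi. The Col libraries of the 2 media did not overlap, and the fitted difference was a log2 of 1.35 ± 0.26 (SE). On -Pi, phr1 was at 24.1, 30.1 and 32.4 RPKM and phl1 at 49.4, 49.5 and 35.6 RPKM, both below Col. It was also below Col in phl2, at 29.3, 27.6 and 29.8 RPKM, and in phl3, at 37.3, 38.4 and 36.2 RPKM. In phr1phl1 the 3 libraries on -Pi were at 0.390, 0.517 and 0.523 RPKM. The libraries of phr1phl1phl2, at 1.08, 1.3 and 0.729 RPKM, all lay above these, and those of phr1phl1phl2phl3, at 0.640, 0.705 and 0.506 RPKM, overlapped them. The crosses phr1phl2, phr1phl3 and phr1phl4 stood between, with means of 7.76 ± 2.73, 7.42 ± 0.592 and 9.64 ± 2.57 RPKM (SD, n = 3). Against Col on -Pi the log2 differences were -1.09 ± 0.26 in phr1, -0.48 ± 0.26 in phl1, -1.08 ± 0.26 in phl2, -0.73 ± 0.26 in phl3, -2.89 ± 0.26 in phr1phl2, -2.91 ± 0.26 in phr1phl3, -2.60 ± 0.26 in phr1phl4, -5.42 ± 0.26 in phr1phl1, -4.97 ± 0.26 in phr1phl1phl2 and -5.29 ± 0.26 in phr1phl1phl2phl3. All phl2, phl3 and phr1phl3 libraries on -Pi lie in another library class than those of Col, so class and genotype cannot be told apart there. With class as a term their differences were -0.69, -0.34 and -2.52. With a pseudocount of 0.1 in place of 1, those of phr1phl1, phr1phl1phl2 and phr1phl1phl2phl3 were -6.77, -5.81 and -6.45. In phl4 the libraries overlapped those of Col, at 58.0 to 76.5 RPKM. In the order of all 24 group means, from 67.8 RPKM in phl4 on -Pi to 0.476 RPKM in phr1phl1 on -Pi, the libraries of 7 of the 23 neighbouring pairs did not overlap.

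UMAMIT28, an exporter known from the endosperm, was lowest on -Pi in the same 3 genotypes, with smaller differences. Its libraries overlapped between media in Col, at 20.6, 26.8 and 26.4 RPKM on +Pi and 23.0, 24.5 and 24.2 RPKM on -Pi (log2 difference -0.03 ± 0.19). On -Pi it was at 3.82, 4.32 and 4.33 RPKM in phr1phl1, below every library of Col and of the 5 mutants in 1 gene. It was at 4.51 ± 0.676 RPKM in phr1phl1phl2 and 4.92 ± 1.03 RPKM in phr1phl1phl2phl3, and between 8.45 and 10.9 RPKM on average in phr1phl2, phr1phl3 and phr1phl4. Over the 24 group means of log2(RPKM + 1), UMAMIT28 was the gene most like UMAMIT14 of all 21206 genes tested, and UMAMIT14 the most like UMAMIT28 (Pearson's r 0.92). UMAMIT26 was the third for both, with r of 0.91 to UMAMIT14 and 0.89 to UMAMIT28, and FUT5, a fucosyltransferase, was next to UMAMIT14 at 0.92. The group means share libraries, media and library classes.

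The summed phloem markers were highest on -Pi in the 3 genotypes with the least UMAMIT14, and lower than in Col in phr1phl2, phr1phl3 and phr1phl4, where UMAMIT14 was also lower. Their sum on -Pi was 90.9 to 95.1 RPKM in Col, 147 to 160 RPKM in phr1phl1, 121 to 159 RPKM in phr1phl1phl2 and 105 to 122 RPKM in phr1phl1phl2phl3, and 63.6 to 72.4 RPKM over phr1phl2, phr1phl3 and phr1phl4. In phl4, where UMAMIT14 was highest, the sum was 52.0 to 62.4 RPKM. The sum is weighted to the abundant markers SUC2, SEOa and SEOR1. The markers did not move alike between media. By median, APL, NAC045 and NAC086 were higher on -Pi, and SUC2, SEOR1, SEOa and CalS7 were lower. None of the 7 markers was at 0 in any library, and the part of phloem cells in the values of UMAMIT14 was not tested. The libraries of Col, phr1 and phr1phl1 on -Pi all belong to 1 class.

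Steps from a mutant to one with a further mutation were tested on -Pi, in 11 steps that share libraries with the contrasts just described. Calls in these steps are therefore not independent of the untested contrasts with Col. A call took a log2 difference of 1 or more in size with an adjusted p below 0.05. Adjusted p-values here and below are limma's, by Benjamini and Hochberg over all 21206 genes, and log2 differences are on the log2(RPKM + 1) scale. The median share of all genes called over the 11 steps was 3.68% higher and 2.52% lower. The 4 pairs of UMAMIT14 with steps from or to phr1phl1 have no test. Without them, 21 of 62 pairs of a UMAMIT gene and a step were called (8 higher, 13 lower). Of the 5 other genes, the step from phr1 to phr1phl1 called 3, where 8.03% of all genes were called, and the step from phl1 to phr1phl1 called 3, against 10.1%. The steps to phr1phl2 called 2 of 6 from phr1 (6.86% of all genes) and 2 of 6 from phl2 (4.74%). Those to phr1phl3 called 2 of 6 from phr1 (13.4%) and 2 of 6 from phl3 (5.33%), and those to phr1phl4 called 2 of 6 from phr1 (12.2%) and 4 of 6 from phl4 (8.83%). Adding phl2 to phr1phl1 called 0 of the 5 other genes (0.156%), adding phl3 to the result called 0 of all 6 (0.637%), and both together called 1 of the 5 (1.7%).

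UMAMIT14 fell in 6 of the 7 steps that do not use phr1phl1, which are those from a mutant in 1 gene. The 6 steps compare the same mutant libraries as its untested differences from Col, and are not independent of them. From phr1, UMAMIT14 fell to phr1phl2, phr1phl3 and phr1phl4 by closely matching amounts, with log2 differences of -1.80, -1.82 and -1.51. From phl2, phl3 and phl4 to the same crosses the differences were -1.81, -2.19 and -2.72. From phr1phl1phl2 to phr1phl1phl2phl3 it was -0.32 ± 0.26, which was not called. The other 4 values rest on the libraries that the gene was chosen by and have no test. They were -4.33 ± 0.26 from phr1 and -4.94 ± 0.26 from phl1 to phr1phl1, and 0.45 ± 0.26 and 0.13 ± 0.26 from phr1phl1 to phr1phl1phl2 and phr1phl1phl2phl3.

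UMAMIT28 fell in 5 of the 11 steps. The step from phr1 to phr1phl1 gave a log2 of -2.05 ± 0.19 (adjusted p = 2.93e-13) and that from phl1 gave -1.78 ± 0.19. The falls from phr1 to phr1phl2 and to phr1phl3, at -1.18 and -1.13, were no longer called with library class as a term (-0.98 and -0.82). UMAMIT11 fell in 2 steps, from phr1 and from phl1 to phr1phl1, by log2 values of -1.36 ± 0.11 and -1.09 ± 0.11. UMAMIT18 was called in 0 of the 11 steps.

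UMAMIT17 and UMAMIT29 moved up in the steps in which they were called. UMAMIT17 rose from phr1 to phr1phl1 (1.56 ± 0.16), from phl1 to phr1phl1 (1.39 ± 0.16), from phr1 to phr1phl4 (2.47 ± 0.16) and from phl4 to phr1phl4 (2.25 ± 0.16). With a pseudocount of 0.1 these values were 3.26, 2.62, 4.38 and 3.56, because the level in the mutants in 1 gene was near 0. UMAMIT29 rose from phl2 to phr1phl2 (1.11 ± 0.16), from phl3 to phr1phl3 (1.34 ± 0.16), from phl4 to phr1phl4 (2.19 ± 0.16) and from phr1phl1 to phr1phl1phl2phl3 (1.08 ± 0.16). The first of these was 0.99 after rescaling by median ratios, and the last was 0.94, 0.96 and 0.97 without phr1phl1 replicate 3, phr1phl1phl2phl3 replicate 1 or phr1phl1phl2phl3 replicate 3 on -Pi. Fitted without the other groups, the last had an adjusted p of 0.0625.

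**Figure D2:**
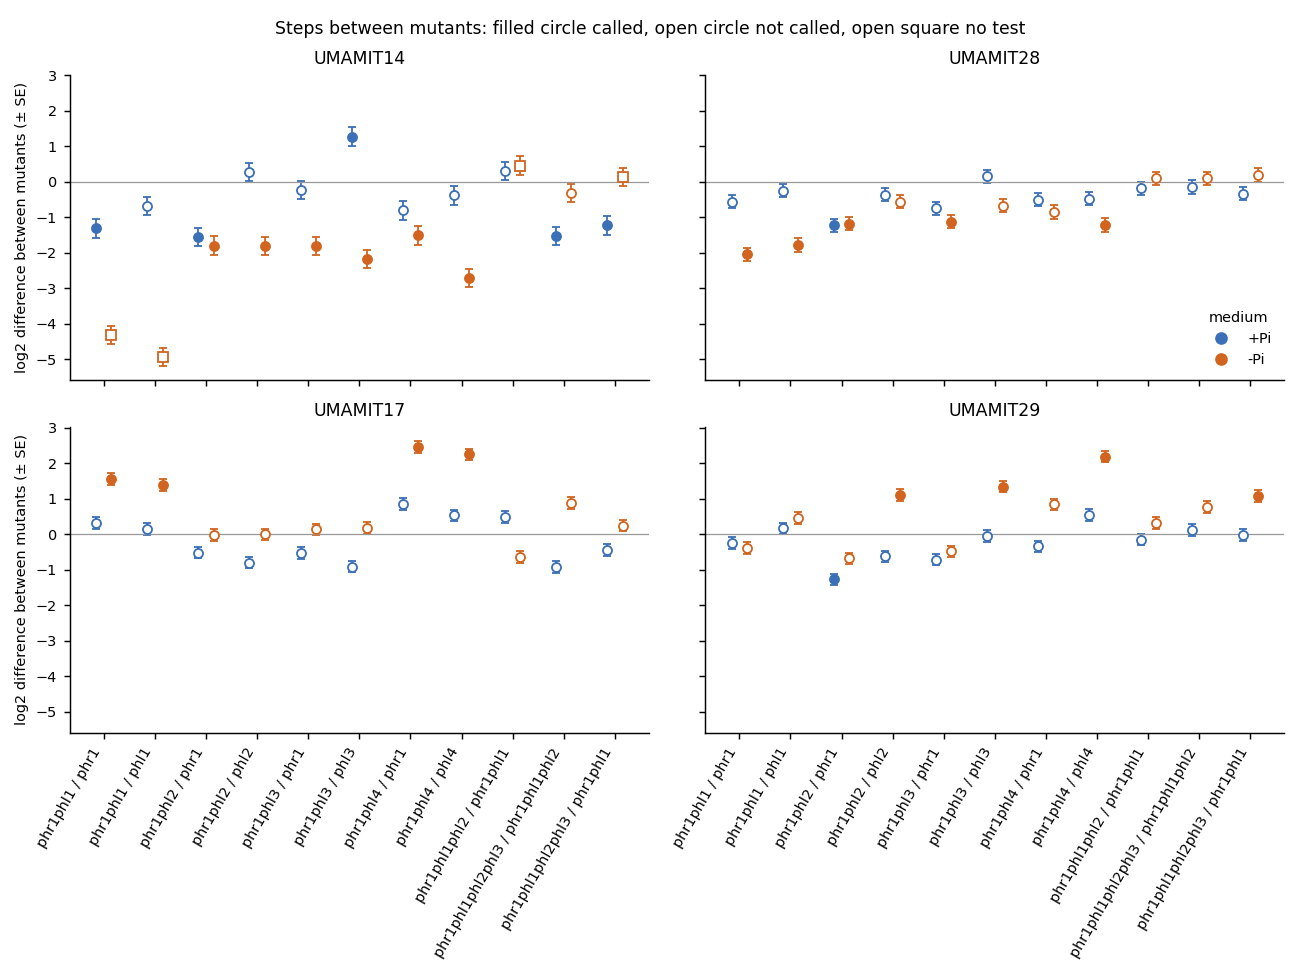
Fitted log2 difference between 2 mutants (± SE, 3 libraries a group) for 4 UMAMIT genes in 11 steps, with +Pi in blue, -Pi in orange, filled circles called, open circles not called and open squares without a test. On -Pi the UMAMIT14 values of -4.33 and -4.94 for phr1phl1 against phr1 and phl1 lie farthest below 0, and the UMAMIT17 values of 2.47 and 2.25 for phr1phl4 lie above 0.

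UMAMIT17 carried the largest difference between media of the 6 genes. In Col it was at 86.6, 49.5 and 63.4 RPKM on +Pi and at 0.260, 0.118 and 0.128 RPKM on -Pi, with a log2 difference of -5.82 ± 0.16 (-7.95 with a pseudocount of 0.1). The media did not overlap. On -Pi it averaged 0.169 to 0.406 RPKM in Col, phr1, phl1, phl2, phl3, phl4, phr1phl2 and phr1phl3, and 1 library of phr1phl2 was at 0. It was higher in the other 4 genotypes, at 2.66, 2.61 and 2.42 RPKM in phr1phl1, 1.14, 1.21 and 1.55 RPKM in phr1phl1phl2, 2.58, 4.08 and 3.15 RPKM in phr1phl1phl2phl3, and 6.53, 4.54 and 6.15 RPKM in phr1phl4. These 12 libraries were all above those of Col, and all below the lowest +Pi library, at 25.3 RPKM. UMAMIT18, the close relative with the shared upstream run, was at 66.9, 72.8 and 77.2 RPKM in the same Col libraries on -Pi, which overlapped its +Pi values of 77.3, 41.6 and 65.2 RPKM.

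UMAMIT29, the seed coat and glucosinolate exporter, was also lower in Col on -Pi, at 2.38, 2.09 and 1.83 RPKM against 11.8, 16.9 and 14.9 RPKM on +Pi (log2 difference -2.32 ± 0.16). Unlike UMAMIT17, it was higher than Col on -Pi already in phr1, at 10.1, 9.34 and 9.14 RPKM (log2 1.77 ± 0.16 against Col), and in phl1, at 5.19, 4.73 and 4.61 RPKM. In phl2 and phl3 its libraries overlapped those of Col. The highest -Pi values were 19.7, 18.1 and 15.8 RPKM in phr1phl4 and 18.7, 11.5 and 18.5 RPKM in phr1phl1phl2phl3, which reach the levels of Col on +Pi. Their log2 differences from Col were 2.60 ± 0.16 and 2.45 ± 0.16.

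Green tissue markers went only in part with both genes on -Pi. Their sum was 4.54 to 5.61 RPKM in Col, 19.3 to 21.1 RPKM in phr1, 141 to 192 RPKM in phr1phl1, 100 to 398 RPKM in phr1phl1phl2, 293 to 447 RPKM in phr1phl1phl2phl3 and 1088 to 1261 RPKM in phr1phl4. By their median library, the 4 genotypes with UMAMIT17 above 1 RPKM had the highest marker sums. In phr1phl3, whose sum of 102 to 116 RPKM overlapped that of phr1phl1phl2, UMAMIT17 was at 0.279, 0.268 and 0.448 RPKM. In phl4 and phr1phl2 the sums were 62.3 to 101 and 43.3 to 105 RPKM, with UMAMIT17 means of 0.406 and 0.202 RPKM. UMAMIT29 was higher in phr1 than in phr1phl3, whose marker sum was larger. In phl1 the sum was 3.96 to 5.18 RPKM, with a UMAMIT29 mean of 4.84 RPKM against 2.10 RPKM in Col. CAB2 was at 0 in 6 of the 72 libraries and the other 5 green markers were above 0 in all. The summed seed markers were also highest in phr1phl4 and phl4 on -Pi, at 8.20 to 11.6 and 6.55 to 8.13 RPKM, against at most 0.902 RPKM in the other genotypes on -Pi. The part of green tissue or seed RNA in these values was not tested.

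**Figure D3:**
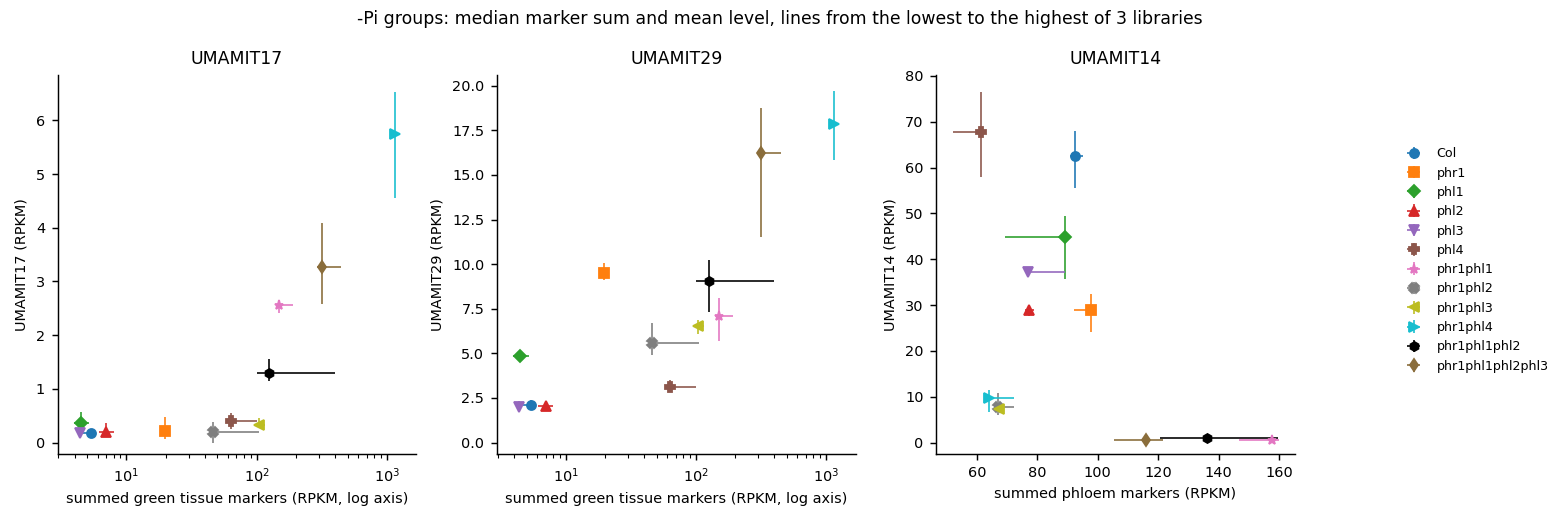
Mean level of UMAMIT17, UMAMIT29 and UMAMIT14 (RPKM) in the 12 -Pi groups against the median of a summed marker list (RPKM, log axis for green tissue), with lines from the lowest to the highest of 3 libraries. UMAMIT17 and UMAMIT29 are highest in phr1phl4, whose green tissue sum of 1088 to 1261 RPKM is also the highest, and UMAMIT14 is lowest in the 3 genotypes with the highest phloem sums.

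UMAMIT11, known as an exporter of the seed and its stalk, was lower on -Pi in Col, at 25.4, 25.7 and 25.5 RPKM against 102, 65.4 and 83.4 RPKM (log2 difference -1.65 ± 0.11). On -Pi it was lowest in phr1phl1, at 10.8, 10.5 and 11.5 RPKM, which is a log2 of -1.15 ± 0.11 from Col. On +Pi it was lowest in phr1phl4, at 25.5, 28.7 and 27.8 RPKM. UMAMIT18, which exports amino acids in root and silique vasculature, varied least of the 6, with group means from 40.8 RPKM in phr1 on +Pi to 106 RPKM in phl3 on -Pi. In its order of 24 group means, the libraries of only 1 of 23 neighbouring pairs did not overlap. The same count was 5 for UMAMIT11, 5 for UMAMIT17, 2 for UMAMIT28 and 3 for UMAMIT29.

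The difference between media was tested in each of the 11 mutants. Without UMAMIT14 in phr1phl1, 35 of 65 pairs of a UMAMIT gene and a mutant were called (3 higher, 32 lower on -Pi). Of these 32, 11 were falls of UMAMIT17, which was chosen for the same change in Col, so they add no independent support. The median share of all genes called over these mutants was 11.2% higher and 4.55% lower. Of the 6 genes, 2 were called in phr1, where 11.3% of all genes were called, 3 in phl1 (12.7%), 4 in phl2 (31.1%), 4 in phl3 (30.8%) and 3 in phl4 (11.4%). In the crosses, 4 of the 5 genes other than UMAMIT14 were called in phr1phl1 (13.9%), and of all 6, 2 in phr1phl2 (22%), 3 in phr1phl3 (24.4%) and 2 in phr1phl4 (9.26%). In phr1phl1phl2 it was 4 of 6 (14.4%) and in phr1phl1phl2phl3 4 of 6 (21%).

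UMAMIT17 fell on -Pi in 11 of 11 mutants, which is the change it was chosen for in Col. Its values ran from a log2 of -5.47 ± 0.16 in phl3 to -3.11 ± 0.16 in phr1phl1phl2phl3 (adjusted p = 7.97e-23). UMAMIT11 fell in 9 of 11, from -1.07 ± 0.11 in phr1 to -2.61 ± 0.11 in phr1phl1. Its value in phr1 was -0.98 without phr1 replicate 3 on +Pi. The 2 mutants without a call both carry phl4, with -0.63 ± 0.11 in phl4 and -0.20 ± 0.11 in phr1phl4. UMAMIT29 fell in the 5 mutants phl1, phl2, phl3, phl4 and phr1phl1, by log2 values from -1.09 ± 0.16 in phr1phl1 to -2.09 ± 0.16 in phl3. The value in phr1phl1 was -0.84 without replicate 1 on +Pi and -0.95 without replicate 3 on -Pi.

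UMAMIT14 changed direction between mutants. It rose on -Pi in phl2 (1.48 ± 0.26), phl3 (1.52 ± 0.26) and phl4 (1.26 ± 0.26), as its values did in Col. It fell in phr1phl1phl2 (-3.23 ± 0.26), phr1phl1phl2phl3 (-2.02 ± 0.26), phr1phl3 (-1.94 ± 0.26) and phr1phl4 (-1.07 ± 0.26). In phr1phl1 the value was -3.38 ± 0.26, with no test. With library class as a term, the values were 0.60 in phl2, 0.63 in phl3 and -0.81 in phr1phl4, which were no longer called, and -3.16 in phr1phl1phl2phl3. In phl2, phl3 and phr1phl1phl2phl3 the +Pi and -Pi libraries shared no class, so medium and class cannot be told apart there. The phr1phl4 value was -0.85 without replicate 3 on -Pi. In phr1, phl1 and phr1phl2 the values were -0.36 ± 0.26, 0.88 ± 0.26 and -0.60 ± 0.26. UMAMIT28 fell in phr1phl1 (-1.66 ± 0.19), phr1phl1phl2 (-1.38 ± 0.19) and phr1phl1phl2phl3 (-1.13 ± 0.19), the last of which was -0.98 without replicate 2 on -Pi. UMAMIT18 was called in 0 of 11 mutants, with values from -0.81 ± 0.18 in phr1phl1phl2 to 0.91 ± 0.18 in phl3.

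**Figure D4:**
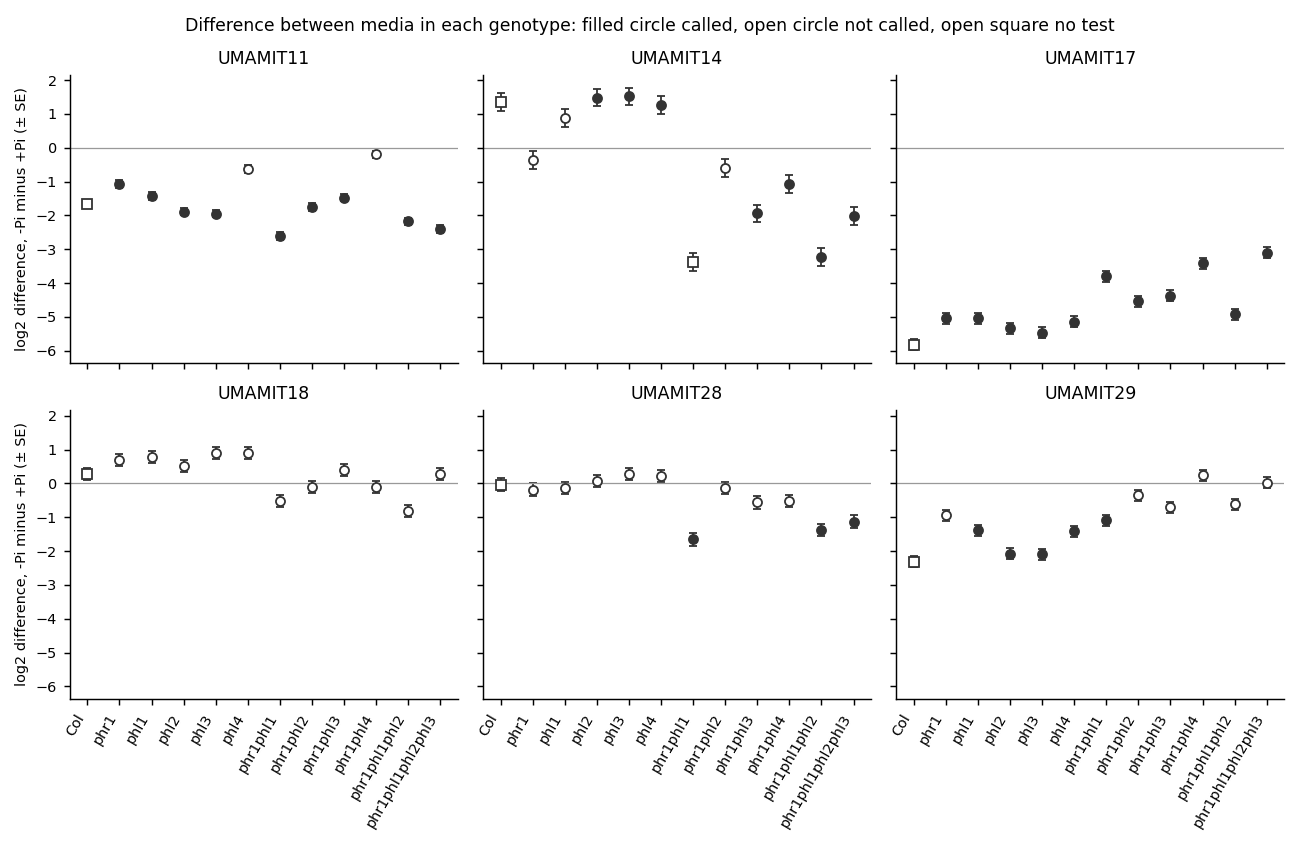
Fitted log2 difference between -Pi and +Pi (± SE, 3 libraries a group) of the 6 UMAMIT genes in each genotype, with filled circles called, open circles not called and open squares for values without a test, in Col and for UMAMIT14 in phr1phl1. UMAMIT17 lies between -3.11 and -5.47 in the mutants, and UMAMIT14 runs from 1.52 in phl3 to -3.38 in phr1phl1.

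On +Pi, with UMAMIT17 set aside, 4 of 55 pairs of a UMAMIT gene and a mutant were called against Col, each lower than Col. Calls over all genes also leaned lower, with a median over the 11 mutants of 5.21% lower and 0.75% higher. In phr1phl4 they did not, with 2.59% lower and 3.01% higher. Of the other 5 genes, 0 were called in phr1 (2.45% of all genes), phl1 (4.02%), phl3 (10.7%), phl4 (1.65%), phr1phl1 (8.53%), phr1phl1phl2 (5.78%) and phr1phl3 (2.51%). One was called in each of phl2 (11.3%), phr1phl2 (5.95%), phr1phl4 (5.6%) and phr1phl1phl2phl3 (7.59%). The calls were UMAMIT14 in phl2 (-1.22 ± 0.26) and phr1phl1phl2phl3 (-1.93 ± 0.26), UMAMIT28 in phr1phl2 (-1.30 ± 0.19) and UMAMIT11 in phr1phl4 (-1.56 ± 0.11, adjusted p = 1.71e-17). UMAMIT17 had values of -1.25 ± 0.16 in phr1phl2 and -1.26 ± 0.16 in phr1phl3, with no test. With the UMAMIT17 pairs counted in, 6 of 66 pairs met the rule. That count was 3 with library class as a term and 12 without Col replicate 1 on +Pi.

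UMAMIT14 on +Pi went with the library classes, which themselves went largely with genotype. It was at 5.18 to 22.2 RPKM (median 10.8) in the 17 libraries of the smallest class and at 18.6 to 40.1 RPKM (median 30.5) in the 16 +Pi libraries of the largest class. Within phl1 on +Pi the library in the smallest class was at 10.8 RPKM and the other 2 were at 39.2 and 30.3 RPKM. With class as a term the +Pi differences of UMAMIT14 from Col were -0.07 in phl2 and -0.79 in phr1phl1phl2phl3. That of UMAMIT28 in phr1phl2 was -0.97, and none of the 3 was called. All +Pi libraries of phl2, phl3, phr1phl1 and phr1phl1phl2phl3 were in the smallest class, and none of Col, phr1, phr1phl3, phl4 or phr1phl4. Between these sets of genotypes, here and in the steps below, class and genotype cannot be told apart. The class term rests there on the groups whose libraries fell in different classes.

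The same 11 steps on +Pi gave 8 calls of 66 (1 higher, 7 lower), and 4 with library class as a term. All genes leaned by step. From phr1, 7.08% were lower and 0.387% higher in phr1phl1, 4.43% and 0.509% in phr1phl2, and 4.28% and 6.29% in phr1phl4. From phl3 to phr1phl3 it was 0.608% lower and 7.2% higher. In phr1phl1phl2phl3 it was 1.12% lower and 1.35% higher against phr1phl1phl2, and 1.04% and 1.75% against phr1phl1. The steps from phr1 called 1 of 6 genes to phr1phl1 (7.46% of all genes), 3 of 6 to phr1phl2 (4.94%), 0 of 6 to phr1phl3 (0.924%) and 1 of 6 to phr1phl4 (10.6%). From the other parent, 0 of 6 were called from phl1 to phr1phl1 (3.32%), 0 of 6 from phl2 to phr1phl2 (1.7%), 1 of 6 from phl3 to phr1phl3 (7.81%) and 0 of 6 from phl4 to phr1phl4 (1.46%). Comparing phr1phl1phl2 with phr1phl1 gave 0 of 6 (0.321%), and phr1phl1phl2phl3 gave 1 of 6 against phr1phl1phl2 (2.47%) and 1 of 6 against phr1phl1 (2.79%). UMAMIT14 made up 5 of the 8 calls, of which those from phr1 to phr1phl1 (-1.32 ± 0.26), from phr1 to phr1phl2 (-1.56 ± 0.26) and from phl3 to phr1phl3 (1.27 ± 0.26) were -0.05, -0.72 and 0.00 with class as a term. The others were phr1phl1phl2phl3 against phr1phl1phl2 (-1.53 ± 0.26, with an adjusted p of 0.0656 when fitted without the other groups) and against phr1phl1 (-1.23 ± 0.26, and -0.93 without phr1phl1 replicate 1). UMAMIT28 and UMAMIT29 were lower in phr1phl2 than in phr1 (-1.22 ± 0.19 and -1.27 ± 0.16), at -0.79 and -0.96 with class as a term. UMAMIT11 was lower in phr1phl4 than in phr1 (-1.19 ± 0.11).

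Whether a step differed between media was tested as the step on -Pi minus the step on +Pi. The median share of all genes called over the 11 steps was 4.59% higher and 2.78% lower. Without the 4 pairs of UMAMIT14 that use phr1phl1, 25 of 62 pairs were called (13 higher, 12 lower). From phr1 and from phl1 to phr1phl1, 4 of the 5 other genes were called in each, where 9.85% and 10.9% of all genes were called. To phr1phl2, 0 of 6 were called from phr1 (7.84%) and 2 of 6 from phl2 (7.68%). To phr1phl3 it was 1 of 6 from phr1 (8.56%) and 3 of 6 from phl3 (13.7%), and to phr1phl4 2 of 6 from phr1 (7.36%) and 4 of 6 from phl4 (6.99%). For the higher-order mutants, 1 of the 5 genes other than UMAMIT14 was called for phr1phl1phl2 against phr1phl1 (0.269%) and 1 of the 5 for phr1phl1phl2phl3 against phr1phl1 (4.01%), and 3 of all 6 for phr1phl1phl2phl3 against phr1phl1phl2 (3.68%). The step to phr1phl1 was larger on -Pi than on +Pi for UMAMIT28, by a log2 of -1.48 ± 0.26 from phr1 (adjusted p = 2.06e-05) and -1.53 ± 0.26 from phl1. UMAMIT14, with no test here, had values of -3.01 ± 0.37 and -4.26 ± 0.37 for these steps, and 0.15 ± 0.37 and 1.36 ± 0.37 from phr1phl1 to phr1phl1phl2 and phr1phl1phl2phl3. For the last, the -Pi means were 0.476 and 0.617 RPKM, where the scale leaves little room for a fall.

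Of the 41 other UMAMIT genes, 30 passed the filter. In Col, 8 of the 30 rose and 3 fell on -Pi, where 14.4% of all genes were called (6.24% higher, 8.2% lower). The median log2 difference was 0.43, beside 0.02 over all genes. UMAMIT38 rose from 10.9 ± 1.47 to 77.9 ± 2.50 RPKM (log2 2.74 ± 0.18), and UMAMIT10 from 2.08 ± 0.569 to 10.9 ± 0.301 RPKM (log2 1.96 ± 0.15). UMAMIT20, the neighbour of UMAMIT17, fell from 93.5 ± 6.04 to 4.61 ± 0.397 RPKM (log2 -4.07 ± 0.14). UMAMIT12 fell from 42.0 ± 0.0896 to 16.0 ± 0.326 RPKM (log2 -1.34 ± 0.18).

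In phr1phl1 against Col on -Pi, 2 of the 30 were higher and 7 lower, where 11.5% of all genes were called (7% higher, 4.51% lower), and the median log2 difference was -0.45, beside 0.09 over all genes. UMAMIT20 was higher in phr1phl1, at 33.8, 38.7 and 37.9 RPKM against 4.98, 4.67 and 4.19 RPKM in Col (log2 2.75 ± 0.14), so this neighbour and UMAMIT17 both lay above Col. UMAMIT5, known as WAT1, a vacuolar auxin exporter, was also higher (log2 1.05 ± 0.10). UMAMIT26, the relative of UMAMIT28, was at 0.983, 0.537 and 1.19 RPKM in phr1phl1 against 22.5, 19.6 and 20.6 RPKM in Col (log2 -3.54 ± 0.19). UMAMIT27 was lower by a log2 of -2.42 ± 0.24. P1BS lay 418 bases before UMAMIT26, outside the window of 250 bases. By mean RPKM over all libraries UMAMIT5 (213 RPKM), UMAMIT30 (82.1 RPKM) and UMAMIT31 (65.2 RPKM) were the highest of the other genes, and UMAMIT18 (69.0 RPKM) stood between the last 2.

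**Figure D5:**
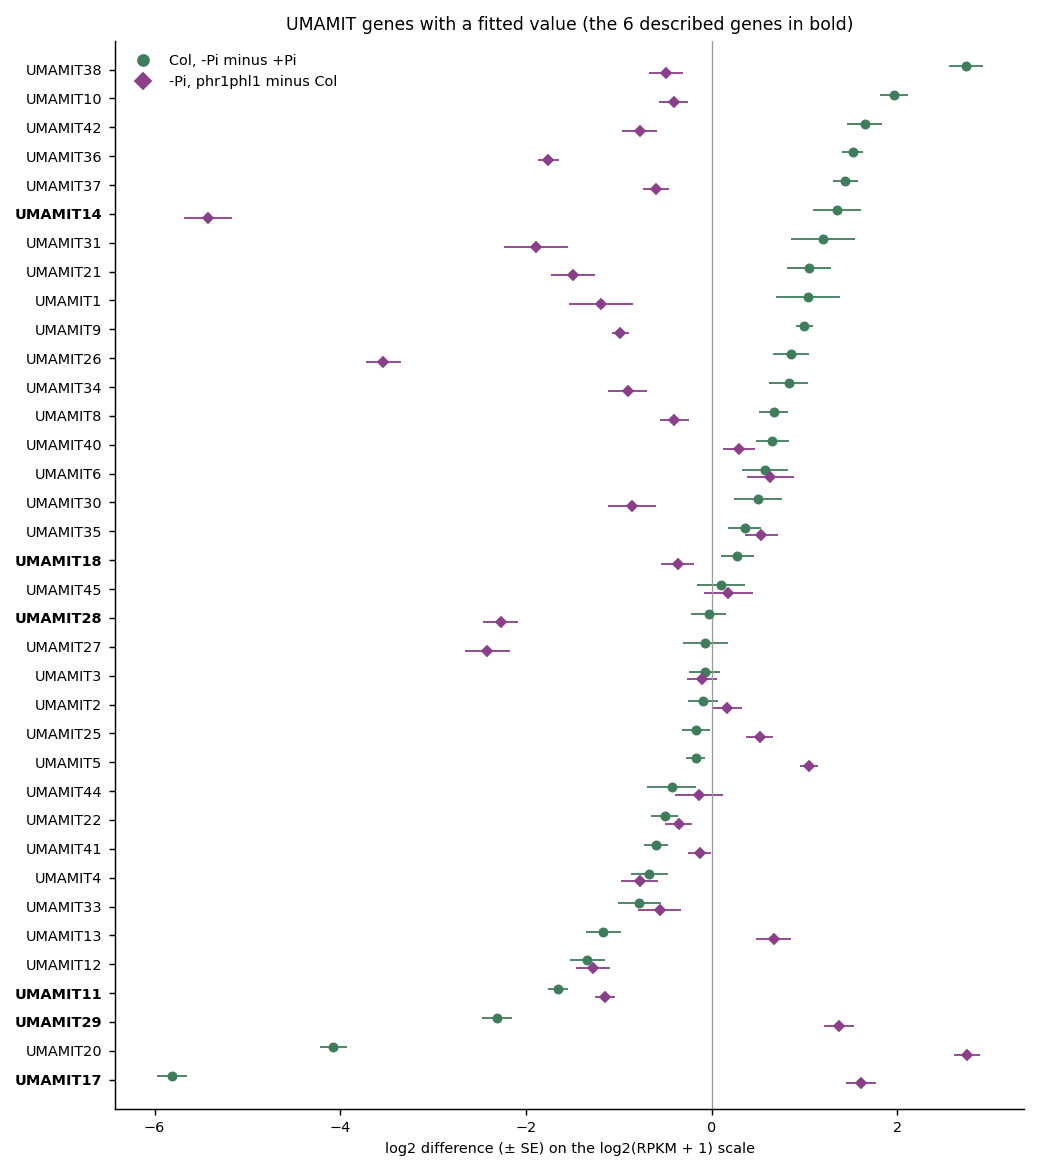
Fitted log2 difference (± SE, 3 libraries a group) of the 36 UMAMIT genes that passed the filter, for -Pi minus +Pi in Col (circles) and phr1phl1 minus Col on -Pi (diamonds), with the 6 described genes in bold. UMAMIT14, at 1.35 and -5.42, has the lowest diamond, and UMAMIT17 and UMAMIT20, at -5.82 and -4.07 in Col, have the lowest circles.

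Importers and other amino acid transporters were compared through a list of 30 genes, of which 26 were tested. In Col, 10 of them rose and 3 fell on -Pi, where 6.24% of all genes were called higher and 8.2% lower. Their median log2 difference was 0.27, beside 0.02 over all genes. GDU6, of the glutamine dumper family that promotes amino acid export, rose from 0.473 ± 0.376 to 40.2 ± 4.87 RPKM (log2 4.83 ± 0.25), and AAP3, an importer of the root phloem, from 6.08 ± 1.80 to 37.2 ± 1.34 RPKM (log2 2.47 ± 0.12). CAT6 and GDU1 fell, by log2 values of -2.08 ± 0.13 and -1.48 ± 0.22. In phr1phl1 against Col on -Pi, 4 of the 26 were higher and 8 lower, where 7% of all genes were called higher and 4.51% lower, and their median was -0.34, beside 0.09 over all genes. AAP3 reached 212 ± 4.49 RPKM (log2 2.48 ± 0.12) and GDU5 was higher (log2 2.08 ± 0.33), whereas AAP6, an importer of xylem parenchyma, and GDU6 were lower (log2 -2.48 ± 0.16 and -2.48 ± 0.25). Of 8 genes for glutamine and asparagine synthetases, 1 was called in Col (12.5%, beside 14.4% of all genes). It was ASN1, an asparagine synthetase, which rose from 3.61 ± 0.368 to 87.0 ± 2.44 RPKM (log2 4.26 ± 0.10). In phr1phl1 against Col 0 of the 8 were called, beside 11.5% of all genes.

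The patterns of the 6 genes over the 24 group means were not alike. Beside the pair of UMAMIT14 and UMAMIT28, UMAMIT11 and UMAMIT17 had a Pearson's r of 0.81 and UMAMIT17 and UMAMIT29 of 0.75, whereas UMAMIT14 and UMAMIT17 had 0.02 and UMAMIT17 and UMAMIT18 had -0.42. Among all genes tested, the most like UMAMIT17 was PIP2A, an aquaporin (0.98). OPT3, a transporter of the oligopeptide family, was the second for UMAMIT11 (0.97). CAO, an enzyme of chlorophyll b synthesis, was the third for UMAMIT29 (0.92), and AT3G15040 was the first for UMAMIT18 (0.85). These values describe 24 points that share 2 media, and carry no test.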

How the data were processed

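Messenger RNA of whole roots was sequenced in 72 libraries, 3 for each of 24 groups of genotype and medium, and nothing says whether the replicates came from separate plates, so p-values measure the spread between these libraries. The authors deposited 1 table of RPKM values for 33602 genes, and TopHat, edgeR and the TAIR10 build are named, per the submitters' processing notes. How reads were counted, and whether strand was used, is not given in the sources used here. Column sums were 559809 to 742047.

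From the deposited RPKM, log2(RPKM + 1) was fitted with limma 3.58.1 in R 4.3.3, with 24 group means over all 72 libraries and moderated variances (trend, robust). The 21206 genes that reached 1 RPKM in 3 or more libraries entered the tests, with p-values adjusted by Benjamini and Hochberg over them. Calls took an adjusted p below 0.05 with a log2 difference of 1 or more in size. This scale understates changes of low genes. The procedure was tested on simulated data that held no library classes and had changes only in genes well above 0. That trial therefore cannot speak to the classes or to levels near 0. Depth was estimated from genes of 1 exon, where 42.3% of low values were whole reads to within 0.05 (10% by chance), too few to recover counts, so it is an estimate. Library classes came from k-means (scikit-learn 1.9.0, 50 starts) on 9188 genes. Exons were compared with BLAST+ 2.17.0+, and upstream sequence was read from RefSeq's TAIR10.1.

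The 6 genes, the gene lists and the tests were chosen with earlier results of these data known. Other genes named are the 2 largest called rises and falls per list in Col and in phr1phl1 against Col, the 3 most abundant other UMAMIT genes, UMAMIT neighbours, and genes among the 3 most correlated with each of the 6. One listed transporter, whose name did not match the annotation, was dropped. Same-numbered replicates did not deviate together. Alternatives were another pseudocount, no filter, median ratio scaling, the compared groups alone, a replicate block, library class as a term and leaving out each replicate.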

Additional observations from a re-analysis of the deposited data

Results flagged for a closer look

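For 25 pairs of a UMAMIT gene and a step between mutants, the step on -Pi differed from the same step on +Pi, by limma's test of that difference (adjusted p under 0.05, absolute log2 difference of at least 1). Each value is the step on -Pi minus the step on +Pi. Several of these share libraries and are not independent.

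UMAMIT14 had 5 of them, not counting the steps from or to phr1phl1, which have no test for this gene. The difference was -2.09 from phl2 to phr1phl2, -1.58 from phr1 to phr1phl3, -3.46 from phl3 to phr1phl3, -2.33 from phl4 to phr1phl4 and 1.21 from phr1phl1phl2 to phr1phl1phl2phl3. With library class as a term, -3.46 became -2.19. The call at 1.21 was lost with the compared groups alone (adjusted p = 0.118), with a pseudocount of 0.1 (adjusted p = 0.0976) and under 5 of the left-out libraries (adjusted p from 0.0562 to 0.168), where the value was lowest, at 0.90, without phr1phl1phl2 replicate 2 on +Pi. The other 4 were phr1phl1phl2phl3 replicates 1 and 2 on +Pi, phr1phl1phl2 replicate 3 on -Pi and phr1phl1phl2phl3 replicate 2 on -Pi. In this step the means went from 1.04 to 0.617 RPKM on -Pi, where the scale leaves little room for a fall, and from 18.9 to 5.55 RPKM on +Pi.

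UMAMIT17 had 7. The difference was 1.24 from phr1 and 1.24 from phl1 to phr1phl1, 1.1 from phl3 to phr1phl3, 1.62 from phr1 and 1.72 from phl4 to phr1phl4, and 1.81 from phr1phl1phl2 to phr1phl1phl2phl3. From phr1phl1 to phr1phl1phl2 it was -1.12. This call was lost with a pseudocount of 0.1 (adjusted p = 0.371), with the compared groups alone (adjusted p = 0.423), with library class as a term (-0.98) and without phr1phl1phl2 replicate 2 on +Pi (-0.96). For the value of 1.1, the -Pi means were 0.172 RPKM in phl3 and 0.332 RPKM in phr1phl3, where the scale leaves little room for a fall. The +Pi means were 50.9 and 26.5 RPKM.

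UMAMIT29 had 5, at 1.74 from phl2 to phr1phl2, 1.39 from phl3 to phr1phl3, 1.18 from phr1 and 1.65 from phl4 to phr1phl4, and 1.1 from phr1phl1 to phr1phl1phl2phl3. The last was lost with the compared groups alone (adjusted p = 0.0626). It was also lost, at 0.85 to 0.999, without phr1phl1 replicate 1 on +Pi, phr1phl1 replicate 3 on -Pi, or phr1phl1phl2phl3 replicate 1 or 3 on -Pi.

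UMAMIT18, with no call in either medium alone, had 4. These were -1.20 from phr1 and -1.28 from phl1 to phr1phl1, -1.02 from phl4 to phr1phl4 and 1.1 from phr1phl1phl2 to phr1phl1phl2phl3. The call at -1.02 was lost with the compared groups alone (adjusted p = 0.0880). It was also lost, at -0.86 to -0.998, without phl4 replicate 1 or 2 on +Pi, phl4 replicate 1 or 3 on -Pi, phr1phl4 replicate 1 on +Pi or phr1phl4 replicate 2 on -Pi. The value of 1.1 was 0.83 with library class as a term and 0.95 without phr1phl1phl2 replicate 2 on +Pi, neither of them called.

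UMAMIT11 and UMAMIT28 had 2 each, both for the steps to phr1phl1. UMAMIT11 gave -1.54 from phr1 and -1.18 from phl1, and UMAMIT28 gave -1.48 from phr1 and -1.53 from phl1.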

How the results depend on the processing

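The counts here include the pairs of UMAMIT14 and UMAMIT17 given without a test. With those pairs the rule was met by 36 (response in mutants), 6 (mutant against Col on +Pi), 23 (steps on -Pi), 8 (steps on +Pi) and 28 (steps that differ between media). Without them it was 35, 4, 21, 8 and 25. Of the 9 counts of calls, 7 stayed within 1.5 times with library class as a term, and the other two fell from 6 to 3 (mutant against Col on +Pi) and from 8 to 4 (steps on +Pi). Without Col replicate 1 on +Pi the first count was 12, and over all libraries left out it ran from 6 to 12. Leaving out each library gave 35 to 37 calls for the response in mutants, 22 to 23 for steps on -Pi, 7 to 9 for steps on +Pi and 25 to 28 for steps that differ between media. No called value, nor any untested log2 difference of at least 1 in size, reversed under the alternatives run. Of 173 single values, library class as a term ended 15 calls and moved 24 untested values, and a pseudocount of 0.1 ended 2 and moved 20. Median ratio scaling (factors 0.837 to 1.14) shifted the median of all genes by at most 0.21.

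No pairing by replicate number was found, since over 828 same-numbered pairs the correlation of deviations ran from -0.80 to 0.86 with a median of -0.01, and 14 of 72 libraries correlated best with their own number. With the replicate block the counts were 36, 6, 23, 8 and 28 for the 6 genes, 11 and 9 for other UMAMIT genes and 13 and 12 for transporters, all as without it. Depth was estimated, so no counting interval is given, and levels of UMAMIT17 and UMAMIT14 under 1 RPKM rest on few reads.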
